A study of Mus musculus with 20 samples.

Results

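Nuclear receptors are transcription factors, and 46 of their genes were followed here in the livers of mice that lacked both liver X receptors (LXR) and of wild-type mice, each on Western or normal diet. The members were listed by gene symbol as named receptors, with earlier results of these data known, and all 46 were found among 27573 gene names on the array, where 81 probes read them. Of these genes 36 had a probe well above background on at least 4 of the 5 arrays of at least 1 group and were tested, and 28 were well above background on all 20 arrays. The 10 genes that did not pass this filter are accounted for at the end.

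Liver RNA of 20 male mice, 28 weeks old and of a mixed Sv129/C57Bl6J background, was measured on 20 single-colour Agilent arrays. The first group was LXR alpha/beta double knockout on Western diet, the second the same knockout on normal chow, the third wild-type on Western diet and the fourth wild-type on normal chow, with 5 mice in each and each diet given for 7 weeks. Western diet here was a cocoa butter diet with Purina chow, and both genotypes of a diet ate the same food. The labels name no promoter or cell type for the deletion, and each RNA came from a piece of whole liver, so that fewer cells of a type and less RNA per cell cannot be told apart. There were 6 slides. The upper quartile of an array's processed signal, its 75th percentile, ran from 339.73 to 435.14 intensity units in knockout mice on Western diet, 223.49 to 323.31 in knockout mice on normal diet, 261.07 to 330.76 in wild-type mice on Western diet and 170.34 to 280.05 in wild-type mice on normal diet. The share of probes well above background was 53.6% to 67.12%, and replicates of a group correlated across genes with r of 0.9504 to 0.9902. All values below are log2 of the processed signal minus log2 of that percentile, so that 0 is the 75th percentile of the array. Each probe has its own brightness, and levels of different genes are not set against each other.

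A nuclear receptor carries a zinc-finger domain that binds DNA and, in most members, a pocket that binds a lipid-soluble ligand, and the bound ligand changes which coactivators and corepressors the receptor recruits. Many liver members, among them the receptors for oxysterols, fatty acids, bile acids, xenobiotics, retinoic acid, thyroid hormone and vitamin D, bind as a heterodimer with a retinoid X receptor to repeats of a short motif whose consensus is AGGTCA. In liver the family is known for the control of bile acid, cholesterol, fatty acid and drug metabolism and for links with the circadian clock.

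The promoter windows of 5 members are printed as a description, and no result below rests on them. The NR4A genes come first, of which Nr4a1 and Nr4a2 differed between genotypes. Nr1h4 and Thrb, which were among the genes that fell on Western diet in knockout mice, follow. Each window is the 250 bases before the RefSeq transcription start on GRCm38.p6. In the NR4A windows, at chr15:101266596-101266845 on the plus strand for Nr4a1, chr2:57124004-57124253 on the minus strand for Nr4a2 and chr4:48045055-48045304 on the plus strand for Nr4a3, capitals mark TGACG or its reverse complement CGTCA, the core of a cyclic AMP response element.
Nr4a1: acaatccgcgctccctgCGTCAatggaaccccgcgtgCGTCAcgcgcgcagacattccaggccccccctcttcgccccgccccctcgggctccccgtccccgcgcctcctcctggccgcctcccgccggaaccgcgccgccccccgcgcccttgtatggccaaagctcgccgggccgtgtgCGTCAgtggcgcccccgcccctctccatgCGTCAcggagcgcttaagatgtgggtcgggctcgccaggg
Nr4a2: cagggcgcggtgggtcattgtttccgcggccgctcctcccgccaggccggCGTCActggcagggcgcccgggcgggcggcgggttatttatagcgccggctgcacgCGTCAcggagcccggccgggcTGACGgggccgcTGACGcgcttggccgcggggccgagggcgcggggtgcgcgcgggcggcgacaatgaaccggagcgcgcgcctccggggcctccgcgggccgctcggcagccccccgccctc
Nr4a3: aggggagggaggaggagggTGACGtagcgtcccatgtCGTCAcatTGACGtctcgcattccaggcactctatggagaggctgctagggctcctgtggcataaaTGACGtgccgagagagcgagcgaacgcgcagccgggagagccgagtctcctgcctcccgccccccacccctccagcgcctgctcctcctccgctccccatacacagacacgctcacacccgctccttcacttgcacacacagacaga
In the windows of Nr1h4, at chr10:89506659-89506908 on the minus strand, and of Thrb, at chr14:17660710-17660959 on the plus strand at 1 of its 2 starts, capitals mark AGGTCA or its reverse complement TGACCT, the hexamer that nuclear receptors bind.
Nr1h4: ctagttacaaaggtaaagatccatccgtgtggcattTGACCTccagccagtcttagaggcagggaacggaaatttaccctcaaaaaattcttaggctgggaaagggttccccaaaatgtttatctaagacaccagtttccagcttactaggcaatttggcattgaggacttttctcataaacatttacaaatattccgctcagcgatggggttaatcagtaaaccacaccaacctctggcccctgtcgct
Thrb: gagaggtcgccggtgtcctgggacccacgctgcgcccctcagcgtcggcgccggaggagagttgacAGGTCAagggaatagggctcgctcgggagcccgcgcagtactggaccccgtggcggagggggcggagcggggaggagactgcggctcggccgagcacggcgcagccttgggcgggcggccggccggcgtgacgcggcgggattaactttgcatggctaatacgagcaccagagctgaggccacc
Windows were held for 42 of the 46 members, 63 windows in all, and for 32851 starts in total. Searched on both strands, TGACG stood in 17.8% of all windows and in the windows of 12 member genes. The 3 NR4A windows held it 4 times each, and 45 of all windows, 0.137%, held it 4 times or more. AGGTCA stood in 14% of all windows and in 11 of the 63 windows of members, from 10 genes. Of the 2 Thrb starts the one with a match is shown. Among the other genes that fell on Western diet in knockout mice, Rxra held 2 matches at 1 start. Ppara, Nr1i3, Rora, Nr2c1, Nr2c2, Hnf4a, Nr2f6 and Rxrb held 0. Direct repeats of AGGTCA with 4 bases and with 1 base between them stood in 0.0152% and 0.0335% of all windows and in 0 windows of members. A match is a description of these letters and not a site.

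The deleted genes were measured first. Nr1h3, which encodes LXR alpha (probe at chr2:90985117-90985176 of mm8, minus strand), had values of -4.55, -5.44, -4.39, -3.74 and -5.42 in knockout mice on Western diet and -4.97, -3.82, -4.38, -4.28 and -5.16 in knockout mice on normal diet. In wild-type mice the values were 4.33, 3.82, 4.2, 4.68 and 4.42 on Western diet and 4.38, 4.57, 4.38, 4.68 and 4.64 on normal diet. Every knockout array lay below every wild-type array, by a difference of -9 ± 0.29 (SE; adjusted p = 1.67e-13) on Western diet and -9.05 ± 0.29 (adjusted p = 3.02e-13) on normal diet. Nr1h2, which encodes LXR beta (chr7:44417972-44418031, minus strand), averaged -4.73 ± 0.69 in knockout and 0.69 ± 0.1 in wild-type mice on Western diet (SD, n = 5 each), and -4.54 ± 0.73 in knockout and 0.85 ± 0.14 in wild-type mice on normal diet. Its differences were -5.43 ± 0.31 (adjusted p = 1.5e-10) and -5.39 ± 0.31 (adjusted p = 1.05e-09), and its genotype groups did not overlap on either diet. Diet moved neither gene past the test in either genotype.

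The genotype comparison on Western diet asks what loss of both LXRs does to the receptor genes under a dietary load. Of the 36 tested members 6 were higher and 18 lower in knockout than in wild-type livers, and the median difference was -0.42. The higher genes were Vdr, Pparg, Nr4a1, Rarb, Nr1i3 and Esr1, and the lower genes, beside the deleted pair, included the hepatocyte regulators Hnf4a, Ppara, Nr1h4 and Nr0b2, all 3 retinoid X receptors and both thyroid hormone receptors. Over all genes tested 25% were higher and 32.7% lower, with a median of -0.16, against 16.7% and 50% of the members. Thus the share of members that were lower exceeded that of all genes, and the share that were higher did not. The lower share, and the overlap and slide counts below, include Nr1h3 and Nr1h2, whose calls followed from the deletion. After quantile normalization 9 members were higher and 16 lower, against 28% and 29.5% of all genes. Vdr passed the filter only through knockout livers on Western diet, so that its call here and between the diets in knockout mice was fixed by the filter. The groups did not overlap for 16 of the 24 members called (66.7%), against 72% of all genes called. On slides that held both groups, 18 of the 24 kept their sign on every slide, against 91.2% of all genes called, and the exceptions were Esr1, Nr1d1, Nr2c2, Nr3c1, Ppara and Rxrg.

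On normal diet 8 members were higher and 4 lower in knockout livers, 22.2% and 11.1% of those tested, against 11.3% higher and 8.39% lower over all genes. The higher genes were Nr4a1, Rarb, Nr1i3, Pparg, Esr1, Nr1i2, Thrb and Esrra, and the lower genes beside the deleted pair were Nr4a2 and Nr2f6. The calls of the deleted pair followed from the deletion, so that only Nr4a2 and Nr2f6 bear on the lower share. The overlap and slide counts below include that pair. The median difference of the members was -0.13 and that of all genes -0.06. The groups did not overlap for 7 of the 12 members called (58.3%), against 63.2% of all genes called. All 12 kept their sign on every slide with both groups, as did 91.7% of all genes called. The 2 genotype comparisons share no array: 5 higher genes, Esr1, Nr1i3, Nr4a1, Pparg and Rarb, were called on both diets, 83.3% of those on Western and 62.5% of those on normal diet. Nr2f6 was the only lower gene called on both diets beside Nr1h3 and Nr1h2.

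**Figure D1:**
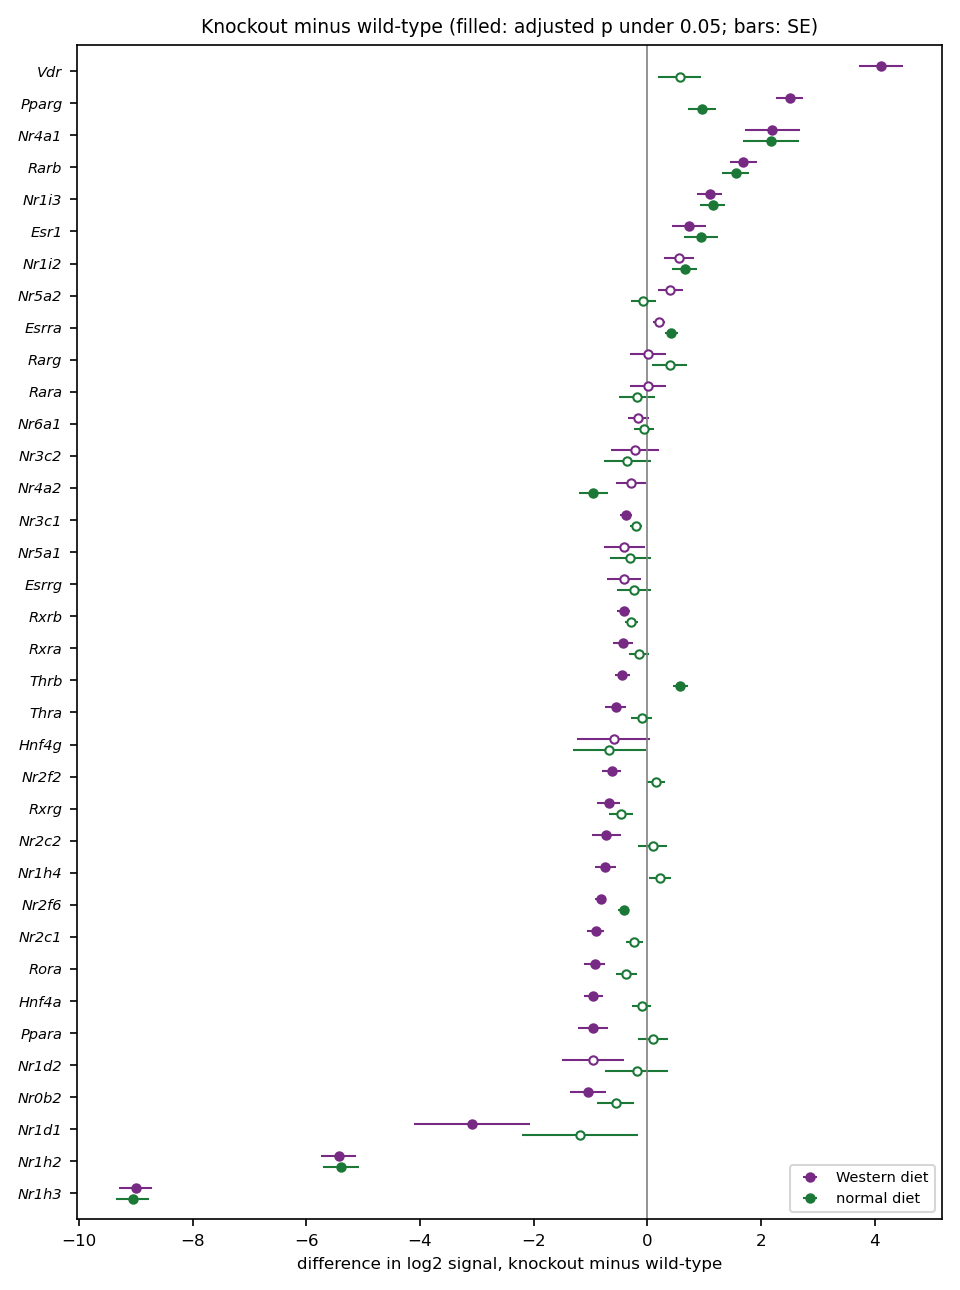
Difference in log2 signal between knockout and wild-type livers (x axis, knockout minus wild-type; bars, SE) for the 36 tested nuclear receptor genes (y axis), on Western diet (purple) and normal diet (green), with filled points for adjusted p under 0.05. Vdr (4.11) and Pparg (2.5) lie farthest right on Western diet, Nr4a1 lies near 2.2 on both diets, Thrb lies on opposite sides of 0 on the 2 diets, and Nr1h3 and Nr1h2 lie far left.

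Western diet in wild-type mice moved few receptor genes. Nr0b2 rose, and Nr1i3, Pparg and Nr5a2 fell, which is 2.78% of the tested members higher and 8.33% lower, against 3.25% and 2.71% of all genes. The median difference was -0.16 for the members and -0.03 for all genes. After median scaling 2 members were higher and 1 lower (1.99% and 0.998% of all genes), and after quantile normalization 0 were higher and 3 lower (3.63% and 2.24% of all genes). The groups did not overlap for 2 of the 4 genes, against 77.8% of all genes called.

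In knockout mice the same diet raised Vdr and Rarb and lowered 11 members, 5.56% and 30.6% of those tested, against 22.6% and 27.8% of all genes. The Vdr call was fixed by the filter, and the higher share and the overlap count below include it. The Rarb call was lost on leaving out each of 12 arrays in turn. The lower genes were Ppara, Nr1h4, Nr1i3, Thrb, Rora, Nr2c1, Nr2c2, Hnf4a, Rxra, Nr2f6 and Rxrb. The share that fell was thus near that of all genes, and the share that rose lay under it. The median difference was -0.39 for the members and -0.12 for all genes. With slide as a block 3 members were higher and 16 lower, while the shares of all genes were 24.4% and 34.2%. After quantile normalization 4 were higher and 10 lower, while the shares of all genes were 27.2% and 23.8%. The groups did not overlap for 10 of the 13 members called (76.9%), against 66.4% of all genes called. Nr1i3 was the only gene called in the same direction in both genotypes, whose diet comparisons share no array but share slides and the estimate of the spread.

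The test of whether the genotype difference itself changed with diet called Vdr and Pparg with a positive term and Ppara, Thrb, Nr1h4, Hnf4a, Nr2f2 and Nr2c1 with a negative one, 5.56% and 16.7% of the tested members, against 12.9% and 14.7% of all genes. The median term was -0.21 for the members and -0.08 for all genes. The call of Vdr followed from the filter, since Vdr was below background in 3 of the 4 groups, and nothing is read from it.

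**Figure D2:**
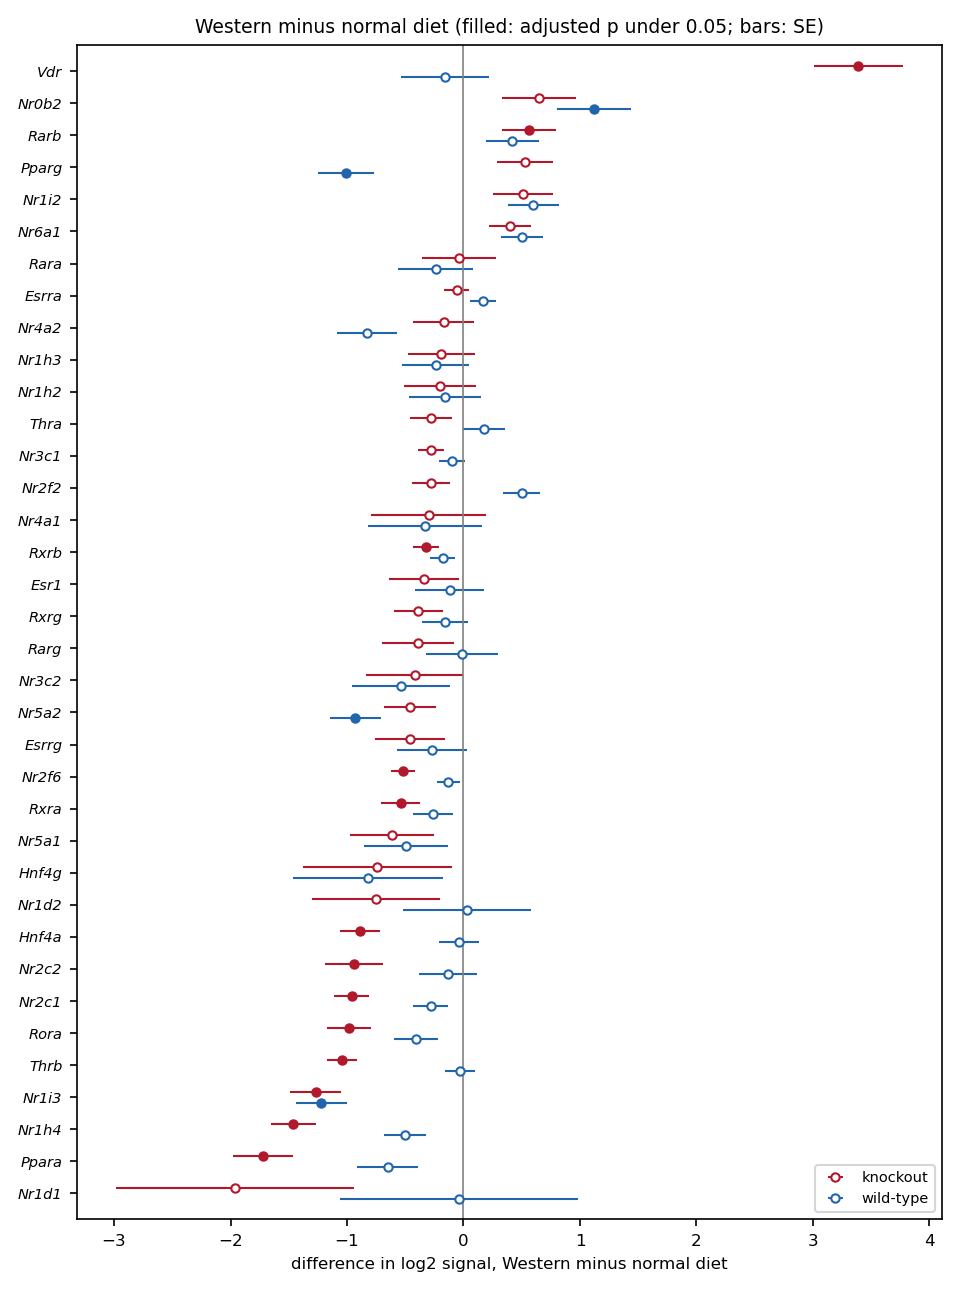
Difference in log2 signal between Western and normal diet (x axis, Western minus normal; bars, SE) for the same 36 genes (y axis) in knockout (red) and wild-type livers (blue), with filled points for adjusted p under 0.05. Vdr (3.39), whose call was fixed by the filter, lies to the right of 0 in knockout livers. Ppara (-1.72) and Nr1h4 (-1.46) fell there, Nr1i3 fell in both genotypes, and the wild-type points lie mostly nearer to 0.

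Genes that mark liver cell types moved with these groups. Where genes of a list are counted, here and below, the shares of all genes called are the background. They were 25% higher and 32.7% lower between genotypes on Western diet, and 11.3% and 8.39% on normal diet. With Western diet they were 3.25% and 2.71% in wild-type mice and 22.6% and 27.8% in knockout mice. The lists are short, and their counts were not tested against these shares. Of 6 hepatocyte markers measured 5 were lower in knockout than in wild-type livers on Western diet (median -0.41), and their summed signal, in multiples of the 75th percentile of the array, ran from 688 to 776 in knockout livers and from 893 to 1090 in wild-type livers. Of 10 macrophage markers 8 were higher (median 3.64), with sums of 245 to 265 in knockout livers, against 41.4 to 135 in wild-type livers, while the other two, Cd5l and Clec4f, which mark resident Kupffer cells, were lower. Stellate cell markers were higher for 6 of 8 (median 1.89; 82.5 to 165 in knockout livers, against 10.8 to 18.9 in wild-type livers) and cholangiocyte markers for 5 of 5 (median 2.54; 147 to 207 in knockout livers, against 33.5 to 146 in wild-type livers). Endothelial markers were called for 2 of 6, 1 in each direction, with sums of 2.9 to 6.55 in knockout livers, against 4.75 to 5.82 in wild-type livers. T and B cell markers were called for 3 of 6, 1 higher and 2 lower, with sums of 0.766 to 1.23 in knockout livers, against 0.701 to 1.45 in wild-type livers. Of 4 adipocyte markers none was well above background on any array of knockout livers on Western diet. Adipocyte sums were 0.0156 to 0.0457 there and 0.0235 to 0.0641 in wild-type livers on Western diet. On normal diet they were 0.134 to 0.292 in knockout livers and 0.0386 to 1.21 in wild-type livers.

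On normal diet 1 of 6 hepatocyte markers was lower in knockout livers, 5 of 10 macrophage markers were higher and 2 lower, and 1 of 8 stellate and 1 of 5 cholangiocyte markers were higher. Hepatocyte sums were 968 to 1250 in knockout livers, against 1030 to 1530 in wild-type livers. Macrophage sums were 14.5 to 87.7 in knockout livers, against 31.4 to 72.5 in wild-type livers. Stellate cell sums were 12.4 to 26.7 in knockout livers, against 9.39 to 14.9 in wild-type livers, and cholangiocyte sums were 16.4 to 47.4 in knockout livers, against 12.6 to 23.8 in wild-type livers. The T and B cell markers were higher for 4 of 6 in knockout livers there (1.47 to 2.19 in knockout livers, against 0.442 to 1.6 in wild-type livers), and endothelial markers for 1 of 6 (4.29 to 8.23 in knockout livers, against 3.58 to 6 in wild-type livers). Between Western and normal diet in knockout livers 6 of 6 hepatocyte markers were lower, 8 of 10 macrophage markers were higher and 1 lower, and 6 of 8 stellate and 5 of 5 cholangiocyte markers were higher. Of 6 endothelial markers 4 were lower and 1 higher, and of 6 T and B cell markers 3 were lower and 0 higher. The part of these cell types in the receptor results was not tested.

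The retinoid X receptors, the shared partners of the heterodimers, were lower in knockout livers on Western diet. Rxra averaged 5.08 ± 0.29 in knockout and 5.5 ± 0.3 in wild-type mice (SD, n = 5 each), a difference of -0.43 ± 0.17 (SE; adjusted p = 0.0355). That call was lost after quantile normalization, with the series matrix values and on leaving out replicate 2 or 5 of knockout mice or replicate 1, 3 or 4 of wild-type mice on Western diet (adjusted p = 0.0517 to 0.107). Its other probe gave -1.11 ± 0.16 (adjusted p = 8.35e-06). Rxrb averaged 1.3 ± 0.07 in knockout and 1.71 ± 0.2 in wild-type mice (difference -0.42 ± 0.11, adjusted p = 0.00269), and its other probe gave -1.34 ± 0.21 (adjusted p = 2.47e-05). Rxrg averaged 0.26 ± 0.4 in knockout and 0.94 ± 0.36 in wild-type mice (difference -0.68 ± 0.20, adjusted p = 0.00642), and within slides this difference ran from -1.25 to 0.06. In knockout mice Rxra was lower on Western diet with a difference of -0.54 ± 0.17 (adjusted p = 0.0114) and Rxrb with -0.32 ± 0.11 (adjusted p = 0.018). This Rxra call was lost after median scaling, quantile normalization or normexp and with the series matrix values. The Rxrb call was lost after median scaling or normexp. No retinoid X receptor passed the test on normal diet or between the diets in wild-type mice.

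Pparg, the fatty acid receptor known as the master regulator of fat cell formation, was higher in knockout livers on both diets (probe at chr6:115455814-115455873, plus strand). Its values were 1.97, 1.66, 1.68, 1.85 and 1.8 in knockout mice and -1.01, -0.03, -1.04, -0.43 and -1.02 in wild-type mice on Western diet. On normal diet they were 1.39, 1.72, 1.56, 0.6 and 1.02 in knockout mice and -0.05, 0.69, 0.29, 0.78 and -0.19 in wild-type mice. The groups stood apart on Western diet (2.50 ± 0.24, adjusted p = 8.93e-08; 5.64-fold) and overlapped on normal diet only through knockout replicate 4 (0.96 ± 0.24, adjusted p = 0.00865; 1.94-fold). Pparg was lower on Western diet in wild-type mice (-1.01 ± 0.24, adjusted p = 0.0167), and in knockout mice the difference was 0.53 ± 0.24 (adjusted p = 0.0737). The wild-type call was lost without wild-type replicate 1 on Western diet (-0.93, adjusted p = 0.0508) or replicate 4 on normal diet (-0.89, adjusted p = 0.0521). It was also lost after median scaling or normexp and when only the 2 groups were fitted. The genotype call on normal diet was lost after median scaling or normexp. The genotype difference was larger on Western diet by 1.54 ± 0.34 (adjusted p = 0.00246). Macrophage and stellate cell marker sums were also higher in knockout livers on Western diet, and their part in the Pparg values was not tested. In wild-type livers adipocyte marker sums were 0.0235 to 0.0641 on Western and 0.0386 to 1.21 on normal diet. The part of fat cells in the Pparg values was not tested either. On slides with both groups the Pparg difference on Western diet ran from 1.7 to 2.98.

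Ppara, the receptor that drives fatty acid oxidation in fasting liver, went the other way on Western diet (chr15:85629291-85629350, plus strand). Its values were 1.9, 1.36, 1.61, 2.69 and 1.37 in knockout mice on Western diet and 3.5, 3.95, 3.79, 2.97 and 3.3 in knockout mice on normal diet. Wild-type mice had 2.59, 2.36, 2.4, 3.08 and 3.31 on Western diet and 3.28, 3.27, 3.12, 3.75 and 3.58 on normal diet. Within knockout mice the diet groups did not overlap (-1.72 ± 0.26, adjusted p = 2.09e-05). Between genotypes on Western diet knockout replicate 4 lay among the wild-type arrays, and the difference was -0.96 ± 0.26 (adjusted p = 0.00344), with a range of -1.72 to 0.29 within slides. The diet dependence of the genotype difference was -1.07 ± 0.36 (adjusted p = 0.0345), and with slide as a block -1.06 (adjusted p = 0.0563). That call was also lost on leaving out each of 10 arrays in turn (adjusted p = 0.0555 to 0.0685). Hepatocyte marker sums were lower in the same group, and their part in the Ppara values was not tested.

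Genes listed as targets of PPAR alpha were lower in the same comparisons. Of 10 tested, 7 were lower and 0 higher in knockout livers on Western diet (median -1.68), against 32.7% lower and 25% higher over all genes. Between the diets in knockout mice 7 were lower and 1 higher (median -1.85), against 27.8% lower and 22.6% higher over all genes. On normal diet 1 was higher and 1 lower between genotypes, and in wild-type mice 1 rose and 1 fell with diet. The fatty acid hydroxylases Cyp4a10 (-4.45 ± 0.25, adjusted p = 1e-10) and Cyp4a14 (-4.21 ± 1.06, adjusted p = 0.00234), the thioesterase Acot1 (-3.79 ± 0.49, adjusted p = 3.81e-06) and the peroxisomal enzyme Ehhadh (-2.49 ± 0.26, adjusted p = 2.57e-07) had the largest differences between genotypes on Western diet.

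Among the LXR targets 7 of 8 were lower and 1 higher in knockout livers on Western diet (median -1.82). The desaturase Scd1 (-6.31 ± 0.44, adjusted p = 1.87e-09), the sterol exporter Abcg8 (-3.62 ± 0.29, adjusted p = 1.15e-08) and the lipogenic factor Srebf1 (-3.34 ± 0.23, adjusted p = 1.83e-09) fell. The cholesterol exporter Abcg1, which macrophages also express, was higher in knockout livers on Western (2.43 ± 0.29, adjusted p = 1.06e-06) and normal diet (1.34 ± 0.29, adjusted p = 0.00281). On normal diet 3 of 8 were lower and 1 higher. In wild-type mice Western diet raised 5 of 8 and lowered 0 (median 0.97), and in knockout mice it raised 1 and lowered 4.

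Nr1h4, which encodes the bile acid receptor FXR and whose promoter window holds 1 AGGTCA match, was lower in knockout livers on Western diet (chr10:88884353-88884412, minus strand). Its values were 3.48, 2.58, 2.64, 3.45 and 2.96 in knockout mice and 3.7, 3.45, 3.62, 4.26 and 3.8 in wild-type mice on Western diet. It had 4.58, 4.58, 4.34 and 4.44 in 4 knockout mice, the spot of the other array being an outlier, and 4.28, 4.07, 4.2, 4.36 and 4.4 in wild-type mice, on normal diet. The genotype groups overlapped slightly on Western diet (-0.74 ± 0.18, adjusted p = 0.00177), while the diet groups of knockout mice stood apart (-1.46 ± 0.19, adjusted p = 6.04e-06). The genotype difference changed with diet by -0.97 ± 0.26 (adjusted p = 0.0105).

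Nr0b2 encodes SHP, a receptor without a DNA-binding domain that represses bile acid synthesis and is itself an FXR target. On Western diet it had -0.11, 0.41, 0.41, 0.51 and 0.81 in knockout mice and 1.19, 1.55, 1.21, 1.75 and 1.52 in wild-type mice. Values on normal diet were -0.18, 0.06, -1.48, 0.81 and -0.41 in knockout mice and -0.15, -0.34, 0.6, 0.86 and 0.63 in wild-type mice. All knockout values on Western diet lay below all wild-type values (-1.04 ± 0.32, adjusted p = 0.00994). Western diet raised it in wild-type mice (1.12 ± 0.32, adjusted p = 0.0452), a call lost on leaving out each of 16 arrays in turn (adjusted p = 0.0506 to 0.116), and the difference in knockout mice was 0.65 ± 0.32 (adjusted p = 0.104). The change of the genotype difference with diet was -0.48 ± 0.46 (adjusted p = 0.49).

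Of 4 tested FXR targets, Nr0b2 among them, 1 was higher and 3 lower in knockout livers on Western diet, and 1 was lower on normal diet. Abcb11, the bile salt export pump, was lower on both diets (-1.59 ± 0.13, adjusted p = 2.59e-08, on Western and -0.79 ± 0.13, adjusted p = 0.000309, on normal diet). Slc51b, a subunit of the basolateral bile acid exporter, rose with Western diet in knockout (5.31 ± 0.36, adjusted p = 3.1e-09) and in wild-type mice (4.31 ± 0.36, adjusted p = 2.15e-06). Western diet raised 2 of the 4 and lowered 0 in wild-type mice, and raised 1 and lowered 1 in knockout mice.

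Nr1i3, which encodes the xenobiotic receptor CAR, was higher in knockout livers on both diets and lower on Western diet in both genotypes (chr1:173054320-173054379, plus strand). Its values were 2.17, 1.84, 2.25, 2.3 and 2.12 in knockout mice and 0.41, 0.68, 1.47, 1.38 and 1.26 in wild-type mice on Western diet. On normal diet they were 2.75, 3.81, 3.2, 3.7 and 3.57 in knockout mice and 2.25, 2.01, 2.05, 2.66 and 2.33 in wild-type mice. The genotype groups did not overlap on either diet, nor did the diet groups within either genotype. The genotype differences were 1.10 ± 0.22 (adjusted p = 0.000309; 2.14-fold) on Western and 1.15 ± 0.22 (adjusted p = 0.00108; 2.21-fold) on normal diet, and the diet differences -1.27 ± 0.22 (adjusted p = 9.57e-05) in knockout and -1.22 ± 0.22 (adjusted p = 0.00214) in wild-type mice. The term for a change of the genotype difference with diet was -0.05 ± 0.31 (adjusted p = 0.936).

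Nr1i2, which encodes the related pregnane X receptor, had 3.26, 3.52, 3.69, 2.95 and 4.22 in knockout mice and 2.53, 2.95, 2.46, 3.09 and 3.29 in wild-type mice on normal diet. The groups overlapped (0.66 ± 0.22, adjusted p = 0.0465), and the call was lost on leaving out each of 14 arrays in turn (adjusted p = 0.0521 to 0.115). On Western diet the spots of 2 knockout arrays were outliers and the remaining values were 4.01, 3.95 and 4.14, against 2.98, 3.83, 3.39, 3.5 and 3.65 in wild-type mice (0.56 ± 0.26, adjusted p = 0.0713).

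Targets of CAR and the pregnane X receptor differed between genotypes on each diet. On normal diet 3 of 7 were higher and 0 lower in knockout livers (median 0.71), led by the cytochromes Cyp2b10 (1.91 ± 0.49, adjusted p = 0.0103) and Cyp3a11 (1.61 ± 0.23, adjusted p = 6.38e-05) and including the exporter Abcc3 (0.71 ± 0.16, adjusted p = 0.00457). On Western diet 1 was higher and 4 were lower, with Cyp2c29 at -2.35 ± 0.16 (adjusted p = 1.73e-09) and the glucuronosyltransferase Ugt1a1 at -1.2 ± 0.25 (adjusted p = 0.000518). Western diet raised 1 and lowered 0 in wild-type mice, where Cyp3a11 rose (1.99 ± 0.23, adjusted p = 2.61e-05), and raised 0 and lowered 4 in knockout mice.

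**Figure D3:**
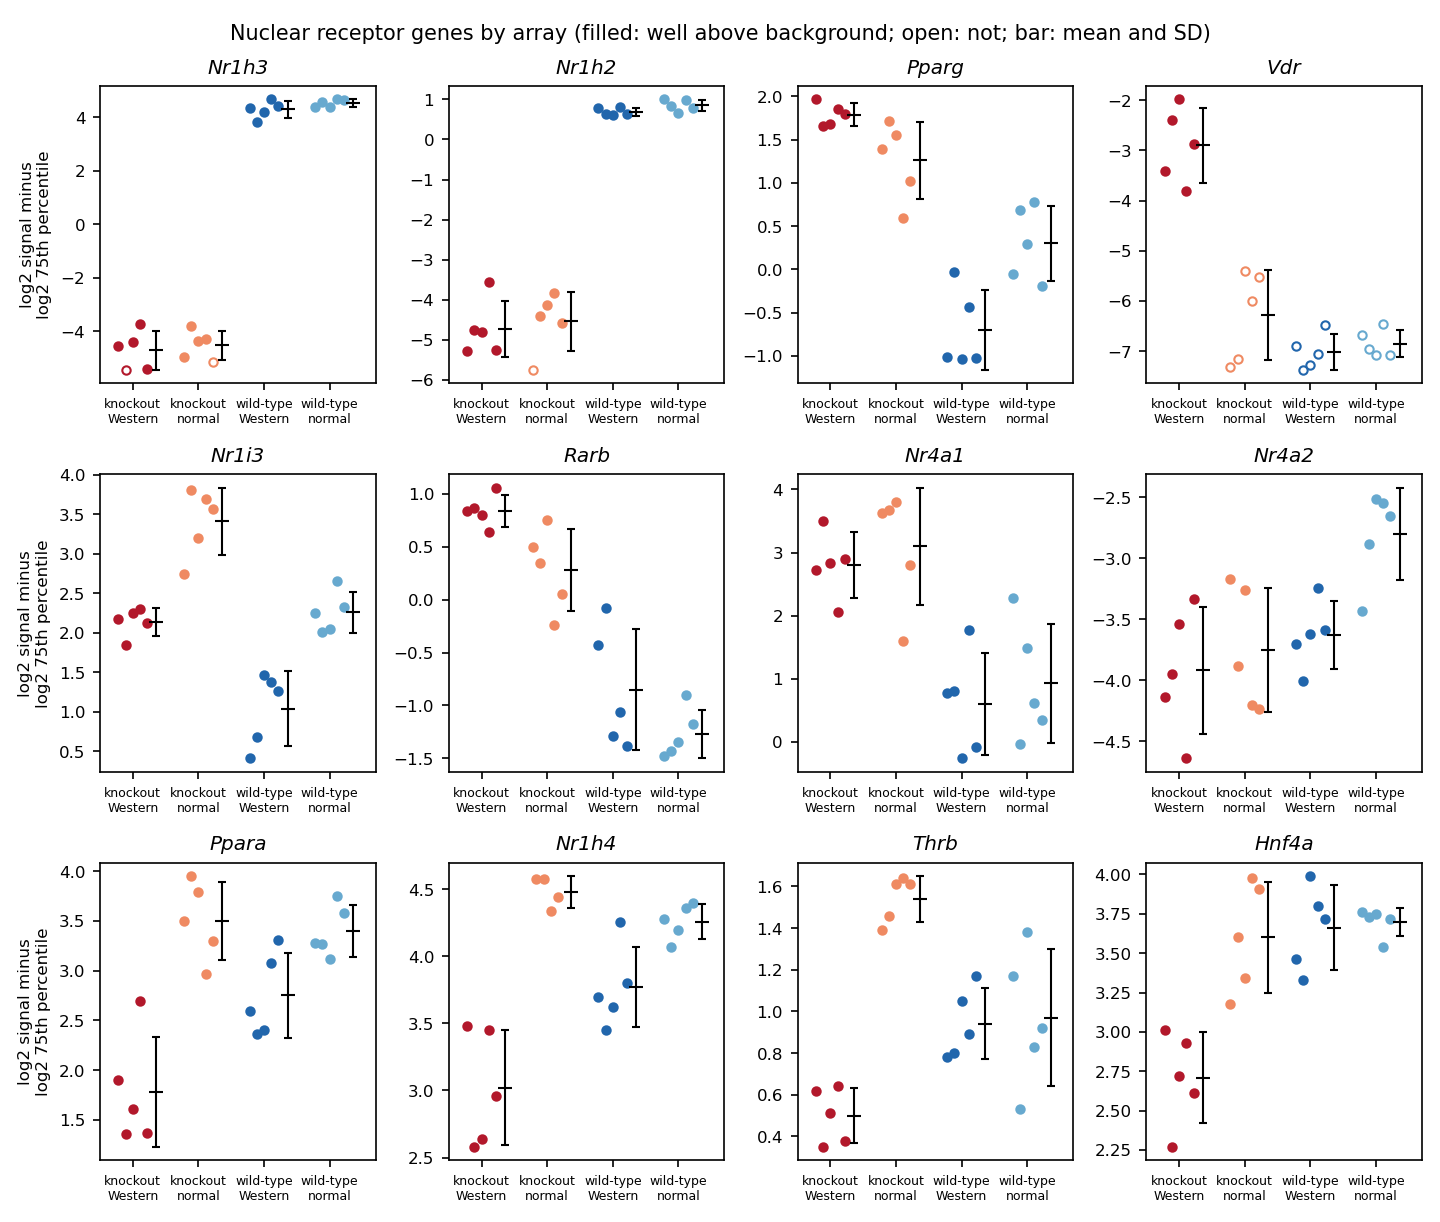
Log2 signal minus log2 of the 75th percentile of the array (y axis) for 12 nuclear receptor genes in each of 20 livers, by genotype and diet (x axis), with filled points for arrays well above background, open points for the others, and bars for mean and SD (n = 5 per group, less outlier spots). Nr1h3 and Nr1h2 separate by genotype, Vdr is filled only in knockout livers on Western diet, and Pparg, Rarb and Nr4a1 sit higher in both knockout groups.

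Vdr, the vitamin D receptor, was well above background on 5 of 5 arrays of knockout mice on Western diet and on 0 arrays of the other groups (chr15:97682739-97682798, minus strand). Its values in that group were -3.41, -2.39, -1.98, -3.82 and -2.88. The dim values were -7.32, -7.16, -5.41, -6.01 and -5.52 in knockout mice on normal diet, -6.89, -7.37, -7.28, -7.05 and -6.47 in wild-type mice on Western diet and -6.68, -6.96, -7.07, -6.46 and -7.08 in wild-type mice on normal diet. Because the gene passed the filter only through the group in which it is high, its difference was bound to appear. Each dim value is only an upper bound, taken as the higher of the probe's own signal and the lowest signal among probes well above background on the array. Against that bound, on the processed signal alone, Vdr was at least 4.83-fold higher than in wild-type mice on Western diet. It was likewise at least 4.48-fold higher than in knockout mice on normal diet. These minimum folds did not hold under the normexp correction given below. The fitted differences were 4.11 ± 0.38 (adjusted p = 4.73e-08) and 3.39 ± 0.38 (adjusted p = 7.57e-07), and they depend on how the dim signal was made. After a normexp background correction fitted to all spots they were 0.2 (adjusted p = 0.761) and 0.04 (adjusted p = 0.95). Vdr is known in liver mainly from cells other than hepatocytes, and macrophage, stellate and cholangiocyte marker sums were also highest in this group. The part of these cells in the Vdr values was not tested.

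Rarb, a receptor for retinoic acid that retinoic acid itself induces, was higher in knockout livers on both diets (chr14:15224264-15224323, minus strand). It had 0.84, 0.87, 0.8, 0.64 and 1.06 in knockout mice and -0.43, -0.08, -1.29, -1.06 and -1.38 in wild-type mice on Western diet. On normal diet it had 0.5, 0.35, 0.75, -0.24 and 0.05 in knockout mice and -1.48, -1.43, -1.35, -0.9 and -1.18 in wild-type mice. The groups did not overlap on either diet, with differences of 1.69 ± 0.23 (adjusted p = 4.64e-06; 3.23-fold) and 1.55 ± 0.23 (adjusted p = 9.31e-05; 2.93-fold). A dimmer second probe was above background on 3 knockout arrays on Western diet, on 4 knockout arrays on normal diet and on 0 wild-type arrays. Against the bound used for Vdr it was at least 1.03-fold higher in knockout livers on normal diet, and on Western diet no fold could be given. Western diet raised Rarb in knockout mice by 0.56 ± 0.23 (adjusted p = 0.047), a call lost on leaving out each of 12 arrays in turn (adjusted p = 0.0512 to 0.132).

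The other retinoic acid receptors, Rara and Rarg, did not pass the test with the probe that stood for the gene, with differences of 0.01 ± 0.32 and 0.01 ± 0.31 on Western diet and -0.18 ± 0.32 and 0.39 ± 0.31 on normal diet. Another probe of Rarg was lower in knockout livers on normal diet (-0.71, adjusted p = 0.0254) and lower on Western diet in wild-type mice (-0.83, adjusted p = 0.0276). Of 4 retinoic acid targets 1 was higher and 1 lower on normal diet, and 0 were higher and 1 lower on Western diet. Cyp26a1, which degrades retinoic acid, was higher in knockout livers on normal diet (2.64 ± 0.28, adjusted p = 2.94e-06) and had -0.34 ± 0.28 (adjusted p = 0.305) on Western diet. It fell with Western diet in knockout mice (-1.97 ± 0.28, adjusted p = 1.1e-05) and rose in wild-type mice (1.01 ± 0.28, adjusted p = 0.0361), and these changes differed by -2.98 ± 0.39 (adjusted p = 2.75e-05). It was the 1 list member that Western diet moved in either genotype.

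Thrb, which encodes the main thyroid hormone receptor of liver, differed between genotypes in opposite directions on the 2 diets (chr14:16829553-16829612, plus strand). It had 0.62, 0.35, 0.51, 0.64 and 0.38 in knockout mice and 0.78, 0.8, 1.05, 0.89 and 1.17 in wild-type mice on Western diet. On normal diet it had 1.39, 1.46, 1.61, 1.64 and 1.61 in knockout mice and 1.17, 0.53, 1.38, 0.83 and 0.92 in wild-type mice. The groups did not overlap on either diet, with differences of -0.44 ± 0.13 (adjusted p = 0.00896) and 0.58 ± 0.13 (adjusted p = 0.0051), and the difference changed with diet by -1.02 ± 0.19 (adjusted p = 0.000653). Within knockout mice Thrb was lower on Western diet (-1.04 ± 0.13, adjusted p = 4.03e-06), and in wild-type mice the difference was -0.03 ± 0.13 (adjusted p = 0.935). A second probe gave -1.65 ± 0.20 (adjusted p = 1.79e-06) on Western and -0.24 (adjusted p = 0.446) on normal diet, and the mean over all probes ended the calls on normal diet and of the change with diet.

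Thra, whose gene shares 1075 bases with Nr1d1 on the opposite strand, averaged 0.93 ± 0.27 in knockout and 1.49 ± 0.17 in wild-type mice on Western diet (SD, n = 5 each; difference -0.56 ± 0.18, adjusted p = 0.0132), and its other probe gave -1.06 ± 0.16 (adjusted p = 1.34e-05). Of 4 thyroid hormone targets 3 were lower on Western diet between genotypes, 1 on normal diet and 4 between the diets in knockout mice, with 0 higher in each. The lipogenic genes Me1 (-3.93 ± 0.48, adjusted p = 1.48e-06) and Thrsp (-2.59 ± 0.58, adjusted p = 0.000883), which LXR and other factors also drive, and the transcription factor Klf9 (-1.02 ± 0.26, adjusted p = 0.00243) were lower in knockout livers on Western diet. In wild-type mice Western diet moved 0 of the 4 past limma's adjusted threshold and 2 at an unadjusted p under 0.05.

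Among the steroid receptors, Nr3c1, the glucocorticoid receptor, averaged 1.95 ± 0.17 in knockout and 2.33 ± 0.16 in wild-type mice on Western diet (SD, n = 5 each). The difference was -0.38 ± 0.11 (adjusted p = 0.00852), a call lost after median scaling, quantile normalization or normexp. Of 5 glucocorticoid targets 3 were higher and 1 lower in knockout livers on Western diet, and 2 higher and 0 lower on normal diet. Fkbp5, a chaperone of the receptor, was higher on Western (2.8 ± 0.48, adjusted p = 6.55e-05) and normal diet (2.21 ± 0.48, adjusted p = 0.00292), as was the clock gene Per1 (1.57 ± 0.36, adjusted p = 0.00103, and 2.06 ± 0.36, adjusted p = 0.000466). Western diet raised 1 and lowered 2 of the 5 in knockout mice and moved 0 past limma's adjusted threshold in wild-type mice, where 1 had an unadjusted p under 0.05.

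Esr1, the oestrogen receptor alpha of liver, was higher in knockout livers on Western (0.73 ± 0.30, adjusted p = 0.0463) and normal diet (0.95 ± 0.30, adjusted p = 0.0319), but the groups overlapped on both. It had -0.59, 0.15, 0.12, 0.63 and 0.63 in knockout mice and -0.03, -0.01, -0.8, -0.68 and -1.18 in wild-type mice on Western diet. The Western call was lost on leaving out each of 11 arrays in turn (adjusted p = 0.0505 to 0.13) and with slide as a block (0.63, adjusted p = 0.0757), and the normal-diet call without replicate 3 or 5 of knockout mice or replicate 3, 4 or 5 of wild-type mice on normal diet (adjusted p = 0.0693 to 0.089). Both were also lost after median scaling or normexp, without the filter, with the mean over all probes and with the replicate block. The Western call held in 13 and the normal-diet call in 22 of 32 settings. Nr3c2, the mineralocorticoid receptor, had -0.22 ± 0.42 on Western and -0.35 ± 0.42 on normal diet and did not pass the test.

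The oestrogen-related receptor Esrra, a regulator of mitochondrial genes, averaged 2.39 ± 0.2 in knockout and 1.96 ± 0.08 in wild-type mice on normal diet (SD, n = 5 each; 0.42 ± 0.11, adjusted p = 0.0115). That call of Esrra was lost after median scaling or normexp. Its second probe was higher on Western diet (0.90, adjusted p = 0.00179) as well as on normal diet (1.01, adjusted p = 0.00346). The probes of Esrrg disagreed: the one that stood for the gene gave -0.41 ± 0.30 (adjusted p = 0.255) on Western diet, and the other, below background on all 5 arrays of knockout mice on Western diet, gave -3.94 ± 0.39 (adjusted p = 1.31e-07). Values of that other Esrrg probe were -7.79, -7.4, -7.3, -6.71 and -8.02 in knockout mice and -3.08, -5.07, -2.39, -3.81 and -3.15 in wild-type mice on Western diet, where 4 of 5 wild-type arrays were above background. On normal diet they were -3.37, -2.26, -2.89, -3.57 and -3.3 in knockout mice and -2.98, -3.1, -2.34, -2.76 and -3.45 in wild-type mice. Against the bound used for Vdr, and on the processed signal alone, Esrrg by this probe was at least 3.99-fold lower in knockout than in wild-type mice on Western diet. It was likewise at least 5.34-fold lower in knockout mice on Western than on normal diet, where the probe that stood for the gene gave -0.46 ± 0.30 (adjusted p = 0.221). No fold after normexp is given for this other probe.

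Hnf4a, the receptor that maintains hepatocyte identity, was lower in knockout livers on Western diet (chr2:163263779-163263838, plus strand). It had 3.01, 2.27, 2.72, 2.93 and 2.61 in knockout mice and 3.46, 3.33, 3.99, 3.8 and 3.72 in wild-type mice on Western diet. Values on normal diet were 3.18, 3.6, 3.34, 3.98 and 3.91 in knockout mice and 3.76, 3.73, 3.75, 3.54 and 3.72 in wild-type mice. The 5 knockout livers on Western diet lay below every other liver, by -0.95 ± 0.17 (adjusted p = 0.000102) against wild-type mice and -0.89 ± 0.17 (adjusted p = 0.00025) against knockout mice on normal diet. On normal diet the genotype difference was -0.10 ± 0.17 (adjusted p = 0.718), and the change with diet was -0.85 ± 0.24 (adjusted p = 0.0125). Its 2 other tested probes gave -1.6 ± 0.23 and -1.02 ± 0.16 on Western diet. Of 5 HNF4 alpha targets 3 were lower and 0 higher between genotypes on Western diet, led by the transport protein Ttr (-2.03 ± 0.18, adjusted p = 2.6e-08), which is also one of the hepatocyte markers. On normal diet limma called 0 of the 5, of which 2 had an unadjusted p under 0.05. In knockout mice Western diet lowered 4 and in wild-type mice 1. Hnf4g, its close relative, did not pass the test in any comparison.

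Nr2f6, Nr2c1, Nr2c2 and Nr2f2 encode orphan receptors, and the probe that stood for each was lower in knockout livers on Western diet. Nr2f6 (EAR2) had 4.25, 4.25, 4.03, 4.17 and 4.39 in knockout mice and 5.04, 4.95, 4.86, 5.35 and 4.97 in wild-type mice on Western diet, with no overlap (-0.82 ± 0.10, adjusted p = 2.36e-06). On normal diet it had 4.65, 4.63, 4.78, 4.92 and 4.74 in knockout mice and 5.2, 5.13, 5.02, 5.36 and 5.1 in wild-type mice, again with no overlap (-0.42 ± 0.10, adjusted p = 0.00738). This normal-diet call was lost after median scaling or normexp. Nr2c1 (TR2) had -1.49, -1.82, -1.84, -1.73 and -1.51 in knockout mice and -0.88, -0.4, -1.07, -0.71 and -0.81 in wild-type mice on Western diet. The Nr2c1 groups did not overlap (-0.91 ± 0.15, adjusted p = 4.58e-05), and the genotype difference changed with diet by -0.67 ± 0.21 (adjusted p = 0.0235). Of its other probes 1 gave -1.26 (adjusted p = 1.61e-05) on Western diet and a change with diet of -0.93 (adjusted p = 0.0142), and the other gave -0.58 (adjusted p = 0.0787) and -0.28 (adjusted p = 0.652). Nr2c2 (TR4), the relative of Nr2c1, averaged -0.31 ± 0.68 in knockout and 0.41 ± 0.14 in wild-type mice on Western diet (-0.72 ± 0.25, adjusted p = 0.0203), and the call was lost without knockout replicate 1 (-0.57, adjusted p = 0.0647). Nr2f2 (COUP-TFII) averaged 1.26 ± 0.17 in knockout and 1.89 ± 0.16 in wild-type mice there (-0.63 ± 0.16, adjusted p = 0.00271), but its other probes gave -0.29 and 0.29, neither of them called.

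Nr5a2 encodes LRH-1, an activator of bile acid synthesis genes, and it was lower on Western diet in wild-type mice. Its values there were 2.72, 3.39, 2.37, 3.57 and 3.79 on Western diet and 3.84, 3.98, 4.25, 4.65 and 3.77 on normal diet (-0.93 ± 0.22, adjusted p = 0.0181). The groups overlapped through wild-type replicate 5 on each diet, and the call was lost without replicate 1 on Western (-0.82, adjusted p = 0.058) or replicate 4 on normal diet (-0.79, adjusted p = 0.0556). In knockout mice Nr5a2 had 3.49, 3.55, 3.52, 3.53 and 3.79 on Western diet and 4.26, 3.95, 4.17, 3.95 and 3.81 on normal diet (-0.46 ± 0.22, adjusted p = 0.0992). Nr5a1 and Nr6a1, best known from steroid-making tissue and germ cells, were not called in any comparison.

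The clock receptors varied between knockout livers of the same group. Nr1d1 (REV-ERB alpha), the repressor of Arntl, had -1.39, -4.81, -4.03, -4.24 and -4.72 in knockout mice and -1.49, -1.28, -0.82, -0.14 and 0.02 in wild-type mice on Western diet (-3.09 ± 1.02, adjusted p = 0.0147). Within slides that difference ran from -4.58 to 0.1, the highest value coming from the slide with knockout replicate 1, and its other probes gave -1.43 ± 0.32 (adjusted p = 0.000761) and -0.48 ± 0.77, the second not called. On normal diet Nr1d1 had 0.34, 0.67, -0.03, -5.8 and -4.56 in knockout mice and -1.01, -0.62, -0.99, -0.24 and -0.64 in wild-type mice, so that 3 knockout livers lay above all wild-type livers and the other two far below (-1.18 ± 1.02, adjusted p = 0.452). Arntl, a clock activator that REV-ERB represses and ROR activates, had -2.88, -2.91, -2.76, 1.74 and 0.9 in the same 5 knockout livers and 1.81, 0.24, 1.53, 1.09 and 1.25 in wild-type livers on normal diet. The knockout livers low in Nr1d1 were thus those high in Arntl. On Western diet Arntl had -1.95, 0.2, -0.57, -1.09 and -0.06 in knockout mice and 1.34, 1.44, 1.2, 0.93 and 1.15 in wild-type mice, and the lowest Arntl was again in the liver with the highest Nr1d1. The labels used here give a light and dark cycle but no hour of killing, and the part of that hour in these values was not tested.

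Nr1d2 (REV-ERB beta) split the same way among knockout livers on normal diet, with 1.96, 2.16, 1.76, -1.39 and 0.18, against 0.62, 1.52, 0.7, 1.36 and 1.38 in wild-type mice, and was not called in any comparison. Rora, the activator that competes with the REV-ERB receptors, had 1.17, 0.65, 0.7, 1.17 and 1.67 in knockout mice and 1.73, 1.82, 1.94, 1.98 and 2.56 in wild-type mice on Western diet. The Rora groups did not overlap (-0.93 ± 0.19, adjusted p = 0.000375), its 2 other probes gave -1.0 and -0.81, and it also fell with Western diet in knockout mice (-0.98 ± 0.19, adjusted p = 0.000318). Of 4 tested REV-ERB and ROR targets 3 were lower and 0 higher in knockout livers on each diet. These were Arntl (-1.91 ± 0.75, adjusted p = 0.0376, on Western and -2.36 ± 0.75, adjusted p = 0.0336, on normal diet), Nfil3 (-1.35 ± 0.41, adjusted p = 0.00864, and -1.24 ± 0.41, adjusted p = 0.0394) and Clock (-0.93 ± 0.24, adjusted p = 0.00242, and -0.71 ± 0.24, adjusted p = 0.0405). On normal diet Clock had 0.15, 0.51, 0.32, 1.73 and 1.45 in knockout mice and 1.52, 1.35, 1.58, 1.5 and 1.76 in wild-type mice. Nfil3 had 0.63, 0.83, 1.54, 3.27 and 2.56 in knockout mice and 3.13, 2.1, 3.38, 3.01 and 3.4 in wild-type mice on normal diet. As for Arntl, knockout replicates 1, 2 and 3 lay below all wild-type livers there and replicates 4 and 5 lay among them. Limma called 0 of the 4 between diets in either genotype, and 0 had an unadjusted p under 0.05.

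**Figure D4:**
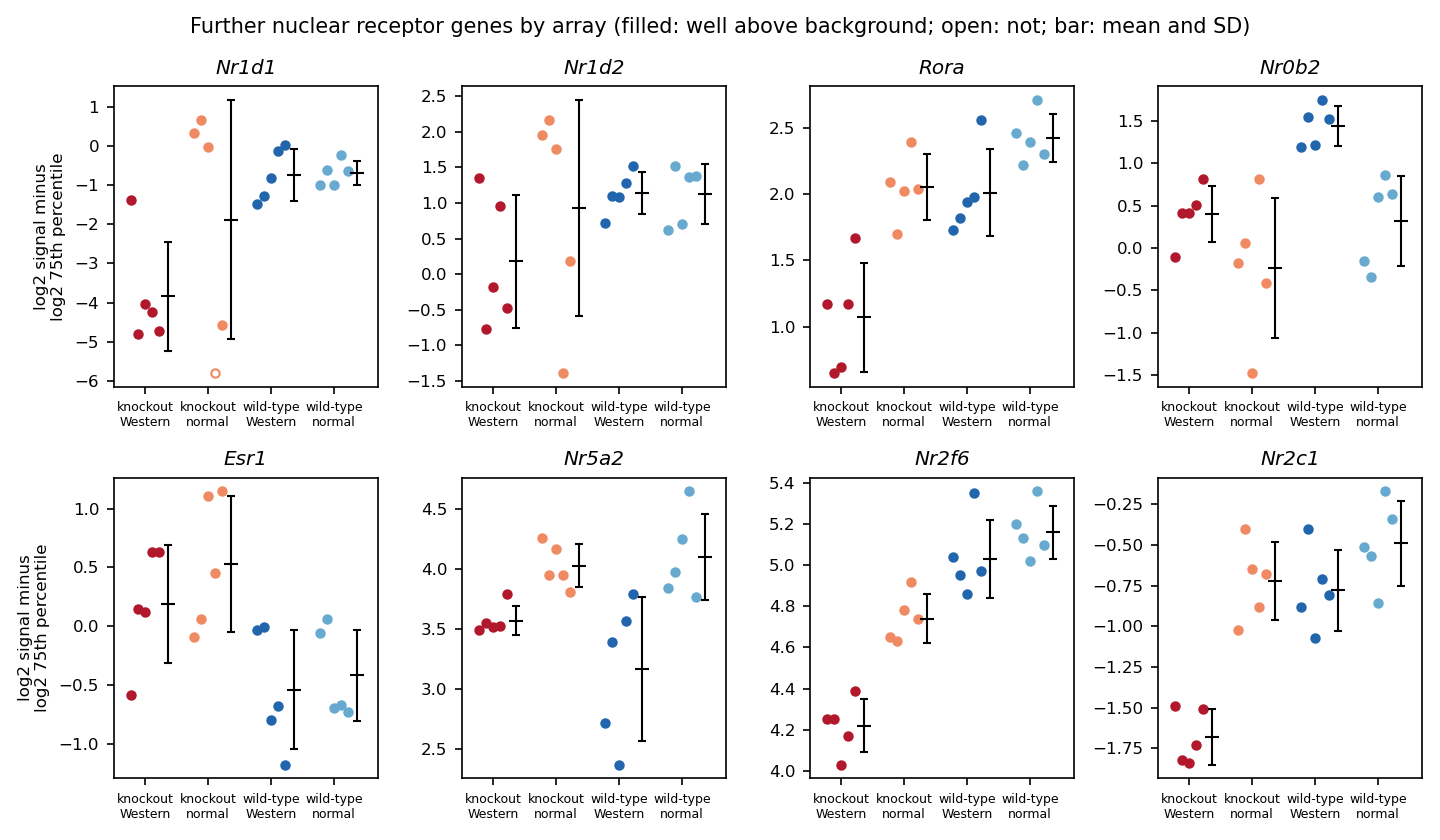
Log2 signal minus log2 of the 75th percentile of the array (y axis) for 8 further nuclear receptor genes in each of 20 livers, by genotype and diet (x axis), with filled points for arrays well above background, open points for the others, and bars for mean and SD (n = 5 per group). Nr1d1 and Nr1d2 spread widely among knockout livers, with 2 knockout livers on normal diet far below the other 3 for Nr1d1, while Nr2f6 and Nr2c1 are lowest in knockout livers on Western diet.

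The NR4A genes encode immediate early receptors that cyclic AMP and stress signals induce within a short time, and their promoter windows share the TGACG matches shown above. Nr4a1 (chr15:101102674-101102733, plus strand) was higher in knockout livers on both diets. It had 2.72, 3.5, 2.83, 2.06 and 2.89 in knockout mice and 0.78, 0.8, -0.26, 1.78 and -0.08 in wild-type mice on Western diet, with no overlap (2.20 ± 0.49, adjusted p = 0.000814; 4.59-fold). On normal diet it had 3.62, 3.67, 3.8, 1.6 and 2.8 in knockout mice and 2.28, -0.03, 1.48, 0.61 and 0.34 in wild-type mice, where knockout replicate 4 lay below wild-type replicate 1 (2.17 ± 0.49, adjusted p = 0.00392; 4.49-fold). Nr4a2 (chr2:56923674-56923733, minus strand) went the other way on normal diet, with -3.17, -3.88, -3.26, -4.2 and -4.24 in knockout mice and -3.43, -2.88, -2.51, -2.55 and -2.65 in wild-type mice (-0.95 ± 0.26, adjusted p = 0.0158). On Western diet the Nr4a2 difference was -0.29 ± 0.26 (adjusted p = 0.363). Nr4a3 was below background on all 20 arrays.

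Coregulators are the proteins that receptors recruit to activate or repress transcription. Of 18 tested, 5 were higher and 5 lower in knockout livers on Western diet (27.8% each, against 25% and 32.7% of all genes; median 0.07). There were 0 higher and 1 lower on normal diet (median -0.11), 5 higher and 3 lower between the diets in knockout mice, and 1 in each direction in wild-type mice. The largest differences on Western diet were those of the coactivator Ppargc1b (-1.19, adjusted p = 0.00692), the ligand-dependent corepressor Lcor (0.82, adjusted p = 0.000403), the fasting coactivator Ppargc1a (0.81, adjusted p = 0.0238) and the corepressor subunit Tbl1xr1 (0.76, adjusted p = 0.00015). The Mediator subunit Med1 was the lower gene on normal diet (-0.67, adjusted p = 0.0493). Ppargc1a fell with Western diet in wild-type mice (-1.16, adjusted p = 0.023), and Ppargc1b fell in knockout mice (-1.55, adjusted p = 0.00109).

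Several probes read 22 of the 46 genes, and for 15 genes more than 1 probe was tested. Between genotypes on Western diet all tested probes were called in 1 direction for 6 of these genes, some but not all for 8, and none for 1, and for 0 genes were probes called in opposite directions. Where probes differed, the value given for the gene is that of its brightest probe. For 11 of the 15 genes another probe was called on Western diet with a larger difference than the probe that stood for the gene. These were Esrrg, Hnf4a, Nr2c1, Nr2c2, Nr3c1, Rora, Rxra, Rxrb, Thra and Thrb, which were lower, and Esrra, which was higher.

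**Figure D5:**
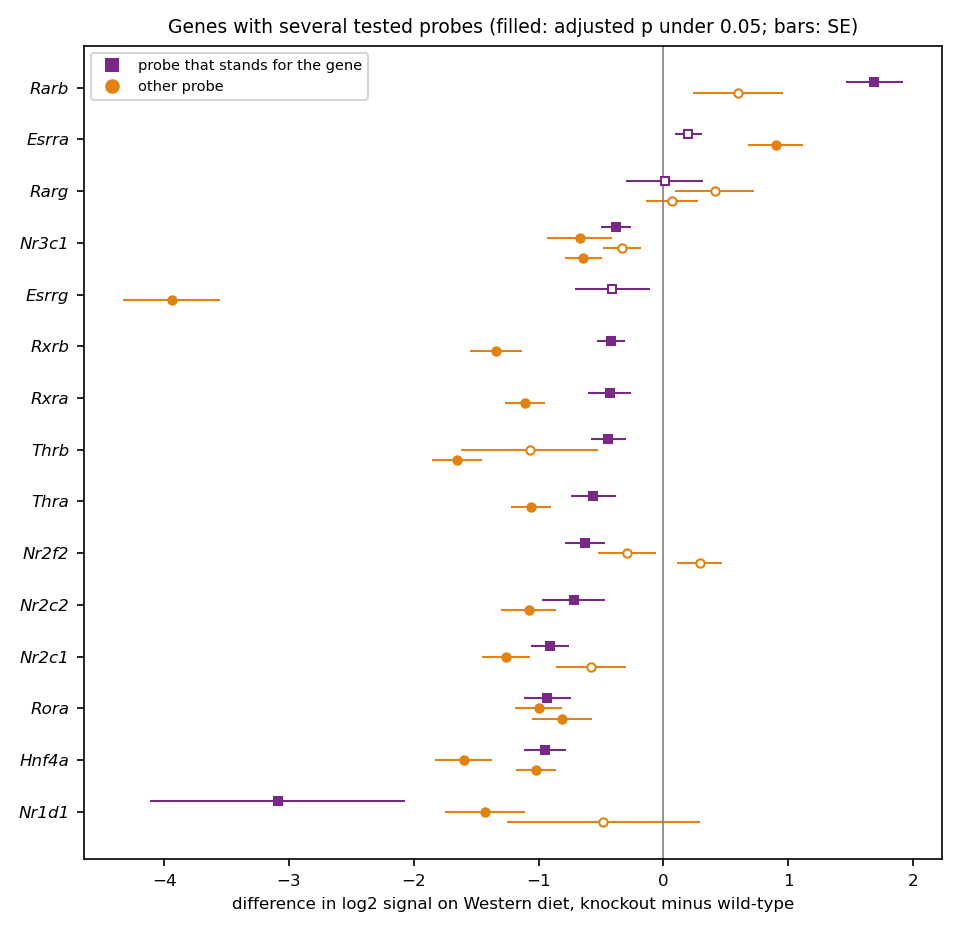
Difference in log2 signal on Western diet (x axis, knockout minus wild-type; bars, SE) for each tested probe of the 15 genes with several tested probes (y axis), with squares for the probe that stands for the gene, circles for the others, and filled symbols for adjusted p under 0.05. The probes of Esrrg lie at -0.41 and -3.94, those of Nr2f2 on both sides of 0, and the called probes of each gene on 1 side of 0.

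The 10 members that did not pass the filter were Esr2, Nr0b1, Nr1h5, Nr2e3, Nr4a3 and Pgr, well above background on 0 of 20 arrays, Nr2f1 on 1, Ppard and Rorb on 3 each and Esrrb on 6. Several are known from other tissues, such as Pgr from the reproductive tract and Nr2e3 from the retina. For these genes a difference was not detectable at this signal. Among tested members, Rara was well above background on 13 arrays, Hnf4g on 14, Nr1h3 on 18, and Nr1d1, Nr1h2, Nr3c2 and Rarg on 19. No probe of a member was saturated.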

How the data were processed

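Liver RNA of 20 mice was hybridised to single-colour (Cy3) Agilent arrays annotated on mm8. Scans were read by the authors with Feature Extraction 9.5.3.1 (protocol GE1-v5_95_Feb07) per the file headers, and the deposited processed signal is a background-subtracted, detrended intensity. The deposited series matrix holds log2 values, used as an alternative, and the submitters' processing notes name Agilent Feature Extraction 9.5 and limma. Nothing is known here of its centring or of how its probes were chosen.

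Outlier and control spots were left out, spots averaged per probe, and log2 of the 75th percentile of each array subtracted. The brightest probe over all 20 arrays stood for a gene. The 17552 genes that 4 or more arrays of some group showed well above background were fitted with limma 3.58.1 in R 4.3.3 (package data.table, version 1.17.8), with 4 group means, 16 residual and 2.23 prior degrees of freedom, and Benjamini-Hochberg adjustment within each of 5 comparisons at 0.05. "Rose", "fell", "higher", "lower" and "called" refer to that threshold. Replicates are different mice. The number of arrays limits the precision. The test was checked on simulated data. Promoter windows came from RefSeq (GRCm38.p6), and figures were drawn with matplotlib 3.10.9 in Python 3.11.15.

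Every member could be named; of each target or coregulator list at most 4 genes with the largest differences were. Members and lists were chosen with earlier results of these data known. Slide and replicate number were tried as blocks. Deviations of same-numbered mice correlated at -0.378 to 0.269 between genotypes (2 of 10 pairs above 0.1) and at -0.041 to 0.487 between diets, where 7 of 10 pairs were above 0.1 and 9 of 10 shared a slide. In no comparison were all pairs above 0.1, so the numbers were not taken as pairs. Other alternatives covered scaling, normexp (offset 50), the filter, probe choice, the groups fitted and each array left out.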

Additional observations from a re-analysis of the deposited data

Results flagged for a closer look

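In 8 of 144 group values of the tested genes 1 array stood far from the other 4 by Dixon's test, which chance flags in about 1 in 20 groups. In knockout mice on Western diet these were Nr1d1 in replicate 1 (-1.39, against -4.81 to -4.03), Nr2c2 in replicate 5 (0.87, against -0.91 to -0.46), Nr5a2 in replicate 5 (3.79, against 3.49 to 3.55) and Rarg in replicate 4 (-2.66, against -3.91 to -3.58). In wild-type mice on Western diet they were Esrra in replicate 4 (2.46, against 2.01 to 2.09) and Nr2c2 in replicate 3 (0.65, against 0.31 to 0.4). In wild-type mice on normal diet they were Hnf4a in replicate 4 (3.54, against 3.72 to 3.76) and Rarg in replicate 4 (-4.21, not above background, against -3.42 to -3.3).

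For 8 genes the genotype difference was called as changed between the 2 diets, by the test of that difference: Vdr (3.55 larger on Western diet), Pparg (1.54), Nr2c1 (-0.67), Nr2f2 (-0.78), Hnf4a (-0.85), Nr1h4 (-0.97), Thrb (-1.02) and Ppara (-1.07). The Nr2f2 and Thrb calls were lost with the mean over all probes of the gene or after normexp. The Nr2c1 call was lost after median scaling or normexp, and those of Hnf4a and Nr1h4 after normexp. The Ppara call held in 16 of 31 settings. The Vdr value rests on dim signals in 3 of the 4 groups, with 2.51 when these are set to their bound and 0.06 (adjusted p = 0.961) with normexp, and its call followed from the filter.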

How the results depend on the processing

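Of the calls among members, 11 of 24 (genotype on Western diet), 4 of 12 (genotype on normal diet), 0 of 4 (diet in wild-type), 7 of 13 (diet in knockout) and 1 of 8 (change with diet) held under every alternative, and 18, 6, 1, 9 and 4 when plain normexp is set aside. Those that held in both genotype comparisons include the deleted Nr1h3 and Nr1h2. Plain normexp was moved by up to 10 spots per array far below their local background, and a normexp fit without spots more than 20 units below it was added after seeing the data. Genotype on normal diet gave 8 higher and 4 lower, against 4 higher with median scaling, 2 higher and 2 lower with normexp and 2 lower with genes above background on all 20 arrays. The shares of all genes were 11.3% higher and 8.39% lower. They were 7.61% higher with median scaling, 1.75% higher and 1.15% lower with normexp and 9.72% lower with that filter. Genotype on Western diet gave 18 lower, against 7 with normexp, while the share of all genes went from 32.7% to 13.3%. Diet in wild-type gave 1 higher, against 2 with median scaling, normexp without those spots, slide block or only the 2 groups fitted, and 0 with quantile normalization, normexp or no filter. The share of all genes higher was 3.25%, against 1.99%, 2.19%, 3.33%, 2.75%, 3.63%, 0.365% and 1.47% in the order named. There were 3 lower, against 1 with median scaling and 0 with normexp, where the shares of all genes were 2.71%, 0.998% and 0.467%. Diet in knockout gave 2 higher, against 4 with quantile normalization or the series matrix and 1 with median scaling, normexp, no filter, the filter on all 20 arrays, the mean over probes or the replicate block. The share of all genes higher was 22.6%, against 27.2%, 26.6%, 19.9%, 10.3%, 14.1%, 21.2%, 19.3% and 22.4% in the order named. There were 11 lower, against 20 with normexp without those spots, while the share of all genes went from 27.8% to 38.5%. The change with diet gave 2 higher, against 1 with normexp or the filter on all 20 arrays, and 6 lower, against 0 with normexp. The shares of all genes were 12.9% higher, against 3.63% and 11.5%, and 14.7% lower, against 2.16%. With the replicate number as a block the higher and lower counts were 7 and 5, 5 and 18, 1 and 3, 1 and 12, and 2 and 6, in the order normal-diet genotype, Western-diet genotype, diet in wild-type, diet in knockout and change with diet. The shares of all genes were 11.1% and 8.42%, 24.8% and 32.4%, 2.78% and 2.67%, 22.4% and 27.6%, and 12.5% and 14.6%. Leaving out 1 array gave 6 to 8 and 4 to 5, 5 to 7 and 17 to 18, 0 to 1 and 1 to 4, 1 to 3 and 11 to 14, and 2 and 5 to 8 in the same order. For these the shares of all genes are not given. For Vdr, genotype on Western diet, normexp gave 0.2 (adjusted p = 0.761), and normexp without those spots gave 0.63 (adjusted p = 0.00157). Rara, genotype on Western diet, reversed to -0.27 (adjusted p = 0.029) with normexp without those spots. The causes of these shifts, beyond the smaller number of genes under a stricter filter, were not tested. Median scaling moved the median of all genes from -0.03 to 0.08 for diet in wild-type, so that small differences there are relative to the scaling. The slide block ended the calls of Esr1 on Western diet and of the Ppara change with diet. Dim probes near background, such as those of Vdr, Rara and Hnf4g, limit what the signal can show. The Nr4a2 probe was well above background on all 20 arrays, but its call on normal diet was lost with normexp.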
